A study of Mus musculus with 4 samples.

Results

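The genes described here are 10 components of Notch signalling: the receptors Notch1, Notch2 and Notch3, the ligands Dll1, Dll4, Jag1 and Jag2, the target Hes1, the DNA-binding mediator Rbpj and the glycosyltransferase Lfng. They were chosen by gene name, as every non-control probe that the array annotation assigns to 1 of the 10 symbols. This gave 15 probes on 33 spots per array, of 41174 probes and 43379 gene spots for 28307 genes in all. A gene was tested when a probe stood well above background in at least 1 of the populations, which 12 of the 15 probes and 9 of the 10 genes met, Jag2 being the gene that did not.

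RNA from sorted epithelial cells of the normal colon of adult mice was compared on 2-colour arrays, which bind differently dyed RNA of both populations to the same 60-base probes. The first population is labelled Lgr5-GFP: in these Lgr5_EGFP-ires-CreERT2 knock-in mice, GFP is made from the promoter of Lgr5, which encodes a receptor that marks stem cells at the crypt base. The other is labelled CD24hi, cells high for the surface protein CD24 in staining with a PE-coupled antibody, by which the design aimed at a subset of goblet cells. Both come from the same kind of mouse as far as the design text states. The 2 replicates were each measured on a first array, where RNA labelled Lgr5-GFP carried Cy3, and a dye swap, where it carried Cy5. Values per array follow 1 order throughout: replicate 1, first array then dye swap, and then replicate 2, first array then dye swap. Nothing in the labels says that the replicates came from separate mice, so p-values measure the spread between these samples alone, and it may be technical.

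In Notch signalling, a Delta or Jagged ligand on 1 cell binds a Notch receptor on its neighbour, proteases including gamma-secretase release the receptor's intracellular part, and this part joins Rbpj on DNA to switch on targets such as Hes1. In the intestinal epithelium Hes1 represses Atoh1, the factor that starts the secretory fate, so cells with active Notch signalling become absorptive or stay as progenitors, and cells that escape it become goblet and other secretory cells. Notch1 and Notch2 are the receptors known to act in crypt cells, Dll1 and Dll4 the ligands.

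The probes decide what is measured for each gene, and 3 that read coding sequence are printed because the results turn on them. The Hes1 probe (mm9, chr16:30065983-30066278, plus strand) lies in the part that codes for the basic helix-loop-helix domain, and its 60 bases spread over 296 bases of the genome, so it crosses an intron. The Notch2 probe (mm9, chr3:97951205-97951264, plus strand) and the Lfng probe (mm9, chr5:141090156-141090215, plus strand) each lie in 1 block. The Notch2 sequence is the one whose ratio stayed near 0 while a more 3′ probe of the gene did not.
Hes1, A_51_P498093: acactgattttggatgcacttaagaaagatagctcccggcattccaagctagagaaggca
Notch2, A_51_P216397: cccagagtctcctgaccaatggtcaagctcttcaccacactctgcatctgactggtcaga
Lfng, A_51_P201226: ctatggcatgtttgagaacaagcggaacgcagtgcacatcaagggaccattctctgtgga

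Rbpj binds the letters GTGGGAA, and these were looked for on both strands in the 250 bases before each gene start of the RefSeq promoter table (GRCm38.p6). They occurred in 1779 of 32851 promoters (5.42%) and in 1 of the 9 member genes that the table holds, Lfng. The member that it lacks is Hes1, whose promoter was therefore not searched. Promoters of 3 genes with a match are shown, with the letters in capitals (TTCCCAC where they lie on the other strand), because these genes went different ways on the arrays: Lfng (chr5:140607091-140607340, plus strand), Hes5 (chr4:154960673-154960922, plus strand) and Hes7 (chr11:69120203-69120452, plus strand).
Lfng: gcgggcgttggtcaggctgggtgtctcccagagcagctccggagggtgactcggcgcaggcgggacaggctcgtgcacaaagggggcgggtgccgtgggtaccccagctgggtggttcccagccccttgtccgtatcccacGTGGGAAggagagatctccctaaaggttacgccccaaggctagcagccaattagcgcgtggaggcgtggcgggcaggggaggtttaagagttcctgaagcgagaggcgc
Hes5: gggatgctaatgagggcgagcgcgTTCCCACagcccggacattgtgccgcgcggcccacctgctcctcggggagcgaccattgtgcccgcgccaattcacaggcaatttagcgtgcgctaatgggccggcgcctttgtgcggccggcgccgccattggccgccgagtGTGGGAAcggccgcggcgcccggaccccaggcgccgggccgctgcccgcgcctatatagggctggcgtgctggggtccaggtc
Hes7: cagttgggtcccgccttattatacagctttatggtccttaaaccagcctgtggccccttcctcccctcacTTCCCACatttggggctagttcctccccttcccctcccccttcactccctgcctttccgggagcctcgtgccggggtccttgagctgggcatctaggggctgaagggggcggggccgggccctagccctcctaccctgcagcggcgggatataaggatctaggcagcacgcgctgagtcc
As given below with the other genes of the pathway, Hes5 was lower in RNA labelled Lgr5-GFP, Hes7 was higher, and Lfng did not pass the test. A match describes the letters only.

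The markers of the sort ran against the labels. Lgr5 itself was lower in RNA labelled Lgr5-GFP, with a log2 ratio of -3.41 ± 0.29, while Cd24a, the gene of CD24, was higher at 2.12 ± 0.30 (SD over replicates, n = 2). The goblet cell mucin Muc2 (3.76 ± 0.58) and Atoh1 (2.57 ± 0.06) were higher there too. Over 10 goblet cell markers, the summed normalized brightness was 522523 to 819851 in RNA labelled Lgr5-GFP and 53806 to 115074 in RNA labelled CD24hi. Over 10 crypt base stem cell markers the sums were 9404 to 9914 in RNA labelled Lgr5-GFP and 24719 to 29139 in RNA labelled CD24hi (3 arrays each, without the dye swap of replicate 1). Bright probes weigh most in such sums. By the limma test given below, 7 of 10 goblet cell markers were higher, and Tff3 (-0.95), Zg16 and Fcgbp were not called. Of 9 tested stem cell markers 7 were lower, Tnfrsf19 was higher (1.06) and Prom1 was not called. Of all tested genes 21.7% were called higher and 25.5% lower. Every direction below is therefore between RNAs as labelled, and a positive log2 ratio means a higher value in RNA labelled Lgr5-GFP than in RNA labelled CD24hi. Whether the labels are exchanged on all 4 arrays was not tested, and if they were, every sign, every share of higher and lower genes and every rank below would turn. In bulk RNA, fewer cells of a type and less RNA per cell cannot be told apart.

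The dye swap of replicate 1 stood apart. Its median spot brightness was 4377 in RNA labelled Lgr5-GFP and 1358 in RNA labelled CD24hi, against 94.2 to 197 on the other arrays, and 75.3% of its gene spots were marked as outliers by the scanner software and left out. Across genes, which are not independent replicates, it correlated at 0.72 to 0.76 with the other arrays, which correlated at 0.92 to 0.96 with each other. Among the tested members, Notch1 and Notch2 kept a value on it, and for the other 7 replicate 1 is its first array alone, in 1 dye orientation.

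Hes1, Notch1 and Notch2 had the largest ratios of the members, and Dll4 ran the other way. limma's moderated test, adjusted by Benjamini-Hochberg over 14801 genes and read at 0.05, called 6 of the 9 tested members: Hes1, Notch1, Notch2, Notch3 and Jag1 were lower in RNA labelled Lgr5-GFP and Dll4 was higher. Dll1, Rbpj and Lfng were not called. Calls were common on these arrays: 47.2% of all tested genes were called, 25.5% lower and 21.7% higher, beside 66.7% of the tested members, 55.6% lower and 11.1% higher. The members' median log2 ratio was -0.49 and that of all tested genes -0.07. Notch1, Notch2 and Notch3 passed the signal filter only through RNA labelled CD24hi, where they were higher, so their lower calls are not independent of the filter. With signal required in both populations these receptors were not tested. The members' median was then -0.37 and that of all tested genes -0.04.

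**Figure D1:**
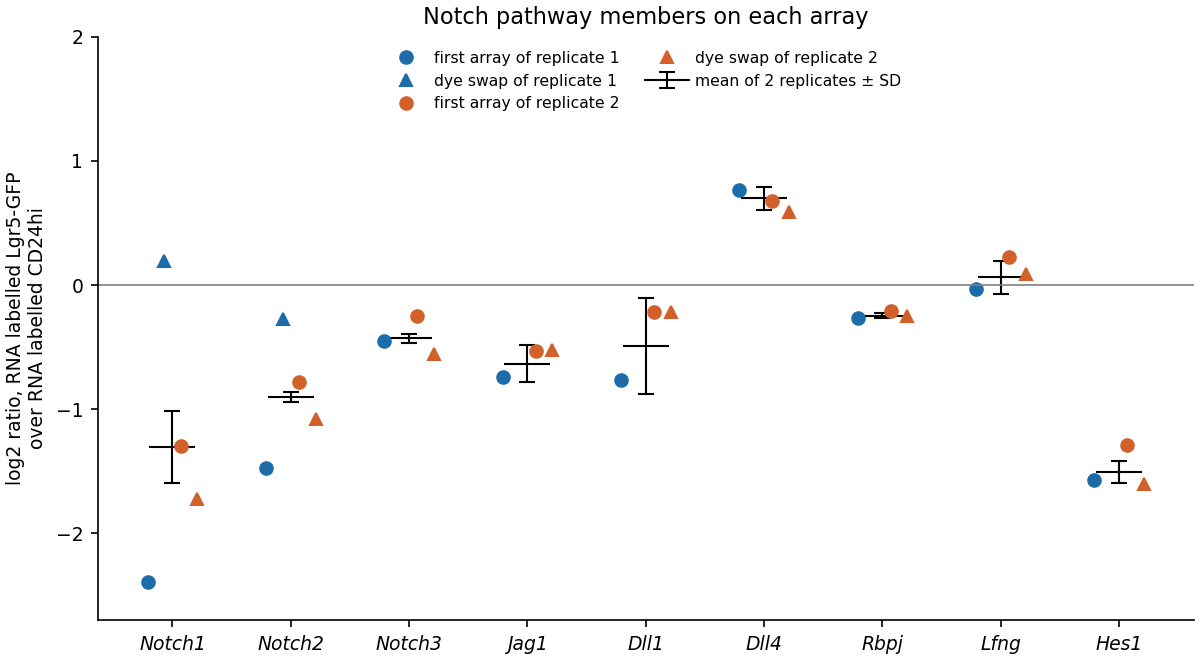
Log2 ratio (vertical axis, RNA labelled Lgr5-GFP divided by that labelled CD24hi) for the 9 tested members (horizontal axis). Each point is an array, blue for replicate 1 and orange for replicate 2, circles for first arrays and triangles for dye swaps, and the black bars are the mean of 2 replicates ± SD. Dll4 lies above 0 on its 3 arrays, Hes1 lies between -1.60 and -1.29, and Notch1 runs from -2.39 to 0.19.

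Hes1, the basic helix-loop-helix repressor that Notch activates, showed the lowest ratio of the members. Its normalized level, in log2 units of brightness, was 8.59, 9.16 and 8.83 in RNA labelled Lgr5-GFP on its 3 arrays, in order and without the dye swap of replicate 1, against 10.16, 10.45 and 10.43 in RNA labelled CD24hi. The probe was well above background in both populations on all 3 arrays. The log2 ratio was -1.51 ± 0.09 (SD, n = 2), 2.84-fold lower in RNA labelled Lgr5-GFP, with an adjusted p of 9.48e-04 by limma. Of all tested genes, 3.13% had a lower ratio. Hes1 was thus low where Lgr5 was low and where Atoh1, the gene it is known to repress, was high.

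Among the receptors, Notch1, which with Notch2 is the one used by crypt progenitors, differed most. Its probe sits at 10 spots per array at the 3′ end of the gene (mm9, chr2:26314772-26314830, minus strand). Levels were 7.36, 12.17, 7.79 and 7.55 in RNA labelled Lgr5-GFP on the 4 arrays in order, against 9.75, 11.98, 9.08 and 9.28 in RNA labelled CD24hi. RNA labelled Lgr5-GFP was the lower one on every array except the dye swap of replicate 1, where 3 of the 10 spots were used and the log2 ratio was 0.19.

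The mean log2 ratio of Notch1 was -1.30 ± 0.29 (SD, n = 2; adjusted p = 0.00210). Without the dye swap of replicate 1 it was -1.95, with the call kept. Without the first array of replicate 1, so that this swap stood alone for the replicate, it was -0.66 with an adjusted p of 0.232, and the call was lost. In RNA labelled Lgr5-GFP the probe stood above background on 2 of 4 arrays, 1 of them that dye swap, and in RNA labelled CD24hi on 4 of 4. On the first array of replicate 1 its 10 spots ran from -2.72 to -1.96. A second Notch1 probe lay next to the first. It was above background on 0 of 3 arrays in RNA labelled Lgr5-GFP and 3 of 3 in RNA labelled CD24hi. For a floored ratio, the dim population was set on each array to the lowest signal that counts as above background. Where the probe's own signal was higher, that was used. Floored in this way, the probe was 2.74-fold lower in RNA labelled Lgr5-GFP. A floored ratio is not a lower limit, as it leaves out the spread between replicates. The measured log2 ratio of this second probe was -1.48 ± 0.58 (SD, n = 2; adjusted p = 0.00347 in the fit over 20617 probes, of which 46.3% were called).

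Notch2, the other crypt receptor, differed by probe. The brightest of its 3 probes, the most 3′ one (mm9, chr3:97953914-97953973, plus strand), had levels of 7.30, 6.76, 7.54 and 7.43 in RNA labelled Lgr5-GFP and 8.77, 7.03, 8.32 and 8.51 in RNA labelled CD24hi, in the same array order. RNA labelled Lgr5-GFP was lower on all 4 arrays, and the log2 ratio was -0.90 ± 0.04 (SD, n = 2; adjusted p = 0.00322). It was -1.20 without the dye swap of replicate 1, and -0.60 with the call lost (adjusted p = 0.291) without the first array of replicate 1. That probe was above background on 1 of 4 arrays in RNA labelled Lgr5-GFP, the dye swap of replicate 1, and on 4 of 4 in RNA labelled CD24hi.

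The coding Notch2 probe printed above gave 0.02 ± 0.09, with an adjusted p of 0.910 over probes. It was close to background as well, being above it on 1 of 3 arrays in RNA labelled Lgr5-GFP and 3 of 3 in RNA labelled CD24hi. The third probe lay between them on the transcript, was above background in neither population on any of its 3 arrays, and gave -0.02. The lower Notch2 value thus belongs to 1 of 3 probes, and with the mean of the kept probes it was -0.44. The difference between the probes was not tested.

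Notch3, a receptor best known from vascular smooth muscle, was well above background in RNA labelled CD24hi only. Levels were 7.37, 7.58 and 7.54 in RNA labelled Lgr5-GFP, on no array well above background, and 7.83, 7.83 and 8.10 in RNA labelled CD24hi, on all 3 above it. The measured log2 ratio was -0.43 ± 0.04 (SD, n = 2; adjusted p = 0.0335). Floored as for the second Notch1 probe, Notch3 was 1.33-fold lower in RNA labelled Lgr5-GFP, which is not a lower limit. Its call was lost without the dye swap of replicate 2 (-0.35, adjusted p = 0.0814).

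**Figure D2:**
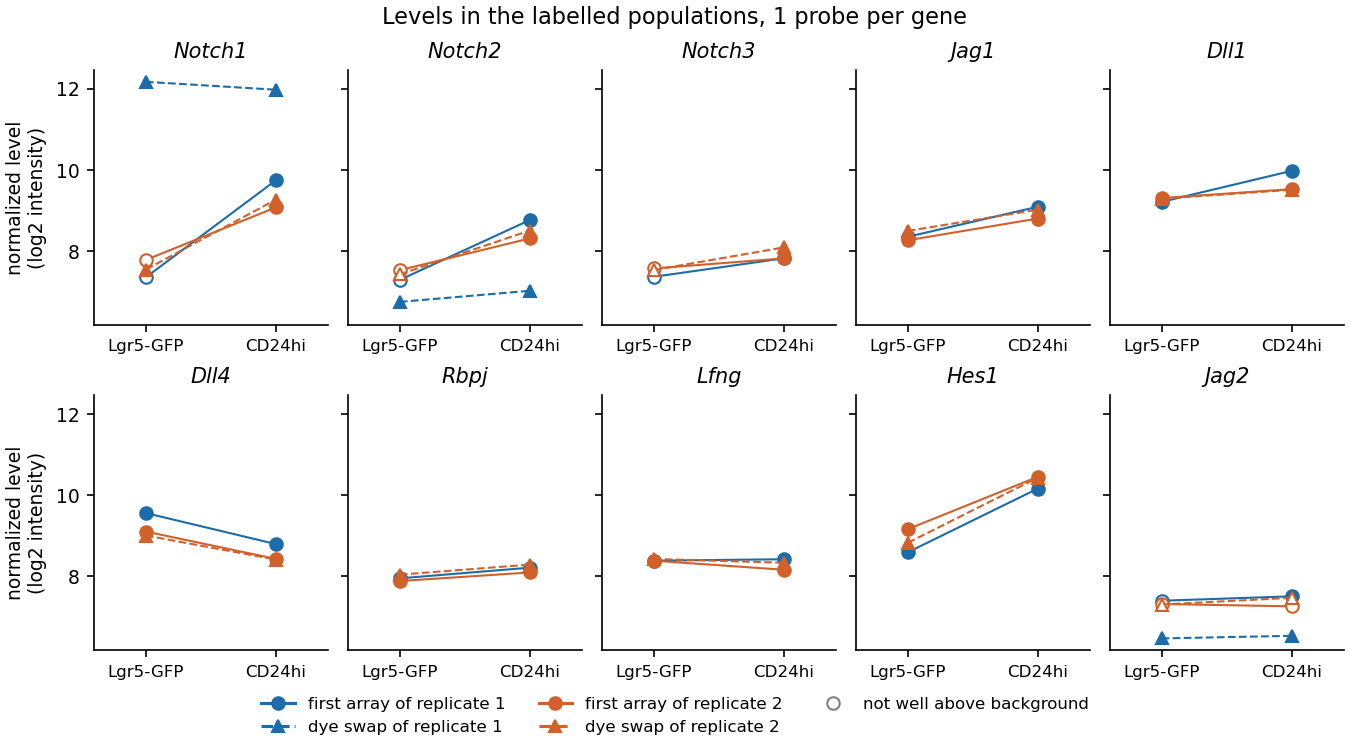
Normalized level (vertical axis, log2 intensity) of 1 probe per member in RNA labelled Lgr5-GFP (left) and RNA labelled CD24hi (right), with a line per array. Blue is replicate 1, orange replicate 2, solid lines with circles are first arrays, dashed lines with triangles are dye swaps, and open symbols are not well above background. The lines of Hes1 and Jag1 climb to the right on every array drawn, those of Dll4 descend, and Notch1 is flat on the dye swap of replicate 1, at 12.17 and 11.98.

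Ligands went in opposite directions. Dll4, a ligand of intestinal crypts and of sprouting vessels, was the member that was higher in RNA labelled Lgr5-GFP, at levels of 9.56, 9.11 and 9.01 against 8.80, 8.43 and 8.42 in RNA labelled CD24hi. Its probe was above background in both populations on all 3 arrays. Its log2 ratio was 0.70 ± 0.09 (SD, n = 2; adjusted p = 0.00742), 1.62-fold higher. When each array was centred on its median in place of loess, which moved the median of all genes to -0.25, the ratio was 0.40 and not called (adjusted p = 0.0530).

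Jag1, the Jagged ligand measured above background, was lower. Its 3′ probe (mm9, chr2:136907433-136907492, minus strand) had levels of 8.36, 8.27 and 8.50 in RNA labelled Lgr5-GFP and 9.10, 8.81 and 9.03 in RNA labelled CD24hi. The log2 ratio was -0.64 ± 0.15 (SD, n = 2; adjusted p = 0.0116). A second Jag1 probe, in coding sequence, was above background in neither population on any of its 3 arrays. The call thus rests on the 3′ probe.

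Dll1, the Delta ligand known from secretory progenitors, was read at 10 spots per array. Its levels were 9.22, 9.31 and 9.30 in RNA labelled Lgr5-GFP against 9.98, 9.53 and 9.52 in RNA labelled CD24hi, lower on all 3 arrays. The replicates differed in size: the log2 ratio was -0.76 on the array of replicate 1 and -0.22 on both arrays of replicate 2, with an SD over the 10 spots of 0.0962, 0.130 and 0.0649. The mean of -0.49 ± 0.39 (SD, n = 2) missed the threshold (adjusted p = 0.0587), with a 95% interval, not adjusted for the number of genes, of -0.91 to -0.07. Dll1 was called at the same value without the dye swap of replicate 1 (adjusted p = 0.0271), on which it has no spot, and without the first array of replicate 2 (adjusted p = 0.0491).

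Jag2, a further Jagged ligand, could not be tested. Its probe was above background in RNA labelled Lgr5-GFP on 1 of 4 arrays and in RNA labelled CD24hi on 2 of 4, the dye swap of replicate 1 being among both. Levels were 7.40, 6.48, 7.32 and 7.31 in RNA labelled Lgr5-GFP and 7.51, 6.54, 7.26 and 7.48 in RNA labelled CD24hi. A difference in Jag2 was not detectable at this signal.

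Rbpj, the protein that carries the Notch intracellular part on DNA, had levels of 7.95, 7.89 and 8.05 in RNA labelled Lgr5-GFP against 8.22, 8.10 and 8.29 in RNA labelled CD24hi. The log2 ratio was -0.25 ± 0.02 (SD, n = 2) and not called (adjusted p = 0.149), with a 95% interval of -0.55 to 0.06. Lfng, which adds sugars to Notch and so changes which ligands it binds, had levels of 8.39, 8.39 and 8.43 in RNA labelled Lgr5-GFP against 8.42, 8.17 and 8.34 in RNA labelled CD24hi. Its ratio was 0.06 ± 0.14 (SD, n = 2; adjusted p = 0.728; 95% interval -0.26 to 0.38), and its coding probe gave -0.02 ± 0.10. The interval of Lfng holds changes of either sign, and its ratio was -0.20 with arrays centred on their medians.

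The other genes of the Hes and Hey family divided. Of 8 listed genes 5 were tested, and 2 were higher, 2 lower and 1 not called. The 80.0% called, beside 47.2% of all tested genes, stands on few genes. Hes5, a repressor that like Hes1 follows Notch activity, was lower on all 3 arrays at -1.25, -1.02 and -0.86, with a mean of -1.09 ± 0.22 (SD, n = 2; adjusted p = 0.00268). Hey1, a related repressor known from vessels, was well above background on 0 of 3 arrays in RNA labelled Lgr5-GFP. Its log2 ratio was -0.38 ± 0.03 (adjusted p = 0.0469). Floored as for the second Notch1 probe, Hey1 was 1.21-fold lower there, which is not a lower limit. That call was lost without the dye swap of replicate 2 (adjusted p = 0.0532) and without the first array of replicate 2 (adjusted p = 0.0610), and the ratio was -1.999 with the processed signals.

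Hes6 and Hes7 were the family members that were higher. Hes6, which in mouse is known to oppose Hes1, had ratios of 1.03, -0.30, 1.29 and 0.95 on the 4 arrays in order, and a mean of 0.74 ± 0.54 (SD, n = 2; adjusted p = 0.0296). Its sign thus turned on the dye swap of replicate 1. Without that array it was 1.08, with the call kept. The call was lost without the dye swap of replicate 2 (0.83, adjusted p = 0.0576) and without the first array of replicate 1 (0.41, adjusted p = 0.546). Hes7, known from the segmentation clock of the embryo, was higher at 0.58 ± 0.07 (SD, n = 2; adjusted p = 0.0132). It was above background on 1 of 3 arrays in RNA labelled CD24hi, and its ratio was 2.37 with the processed signals. Hes2 averaged 0.24 ± 0.44 and was not called (adjusted p = 0.323).

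Outside the members, the receptor Notch4, known from endothelium, and the non-canonical ligand Dlk1 were higher in RNA labelled Lgr5-GFP. Of 7 other receptors, ligands and direct feedback genes, 6 were tested, and 2 were higher, 2 lower and 2 not called, with a median of -0.37. That is 66.7% called, on few genes, beside 47.2% of all tested genes. Notch4 had ratios of 2.01, 1.77 and 1.59 on its 3 arrays and a mean of 1.84 ± 0.23 (SD, n = 2; adjusted p = 8.47e-04), opposite in sign to Notch1, Notch2 and Notch3. Dlk1 averaged 1.81 ± 0.59 (adjusted p = 0.00230), was above background on 2 of 3 arrays in RNA labelled CD24hi, and was 3.79 with the processed signals. Nrarp, a Notch target that feeds back on the receptor complex, was lower at -0.95 ± 0.13 (adjusted p = 0.00315), with ratios of -1.41, -0.30, -0.91 and -1.17 on the 4 arrays. Without the first array of replicate 1 it was -0.67 (adjusted p = 0.219). Nrarp was above background on 3 of 4 arrays in RNA labelled Lgr5-GFP and on 4 of 4 in RNA labelled CD24hi. Egfl7, a secreted protein of vessels that binds Notch, was lower at -0.97 ± 0.31 (adjusted p = 0.00506). It was above background on 1 of 3 arrays in RNA labelled Lgr5-GFP, and was -2.32 with the processed signals. Nrarp, Egfl7, Dlk1, Hey1 and Hes7 passed the signal filter only through the population where they were higher. Their calls are thus not independent of the filter, and with signal required in both populations they were not tested.

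Several genes of this group are also vascular, and endothelial markers were weak. Of 13 endothelial markers, 8 were above background throughout in neither population, among them Pecam1, Cdh5, Kdr and Tie1. Of the 5 tested, 3 were lower in RNA labelled Lgr5-GFP (Egfl7, Flt1 and Vwf) and 0 were higher. That is 60% lower, on few genes, beside 25.5% of all tested genes. The summed level of the 13 was 2793 to 3297 in RNA labelled Lgr5-GFP and 3342 to 3843 in RNA labelled CD24hi. For 12 mural cell and fibroblast markers it was 3930 to 5237 in RNA labelled Lgr5-GFP and 3956 to 5799 in RNA labelled CD24hi, with 4 tested, Pdgfrb lower and Col1a2 higher. Of 12 immune cell markers, 3 were tested and 0 called by limma (0 at an unadjusted p under 0.05 too), and the sums were 2181 to 2310 in RNA labelled Lgr5-GFP and 2264 to 2306 in RNA labelled CD24hi. Their part in the ratios of Notch3, Notch4, Jag1, Dll4 and Hey1 was not tested.

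Genes for cutting the receptor were in part higher. Of 8 tested genes of receptor cleavage (10 listed), 4 were higher, 0 were lower and 4 were not called, with a median of 0.37. The share called was 50%, near the 47.2% of all tested genes, of which 21.7% were higher and 25.5% lower. Furin, the protease that cuts the Notch precursor, averaged 0.81 ± 0.12 (SD, n = 2; adjusted p = 0.00490). The gamma-secretase genes Aph1b (0.73 ± 0.03, adjusted p = 0.00603) and Psen2 (0.51 ± 0.09, adjusted p = 0.0210) were higher as well. Without the first array of replicate 1 Furin, Aph1b and Psen2 did not pass limma's threshold (adjusted p between 0.320 and 0.596), and neither did Psen2 with arrays centred on their medians (0.35, adjusted p = 0.0817). The brightest Aph1b probe has no value on the dye swap of replicate 1, so another of its 3 probes stood for Aph1b without that first array. Adam17, which also cuts Notch (0.23, adjusted p = 0.170), and Psenen, a further gamma-secretase subunit (0.12, adjusted p = 0.443, and -0.02 with arrays centred on their medians), were not called.

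In the group that modifies receptors with sugars or takes up ligands, 12 of 12 genes were tested, with 1 higher, 3 lower and 8 not called (median -0.20). That is 33.3% called, beside 47.2% of all tested genes. The ubiquitin ligases Neurl1b (-0.96 ± 0.36, adjusted p = 0.00639) and Mib1 (-0.87 ± 0.14, adjusted p = 0.00413), of which Mib1 is needed for ligands to signal, were lower. With the mean of its 2 kept probes Mib1 was -0.51 (adjusted p = 0.0185), so its size depends on the probe. Eogt, a sugar transferase, was lower as well (-0.83 ± 0.02, adjusted p = 0.00400). Mib2, a relative of Mib1, was higher (0.41 ± 0.02, adjusted p = 0.0390). Mib2 missed the threshold without the first array of replicate 2 (0.36, adjusted p = 0.0779) and with arrays centred on their medians (0.13, adjusted p = 0.481). Neurl3 (-0.89, adjusted p = 0.0554) was not called, but passed without the dye swap of replicate 1 (adjusted p = 0.0255) or the first array of replicate 2 (adjusted p = 0.0284). Neurl1a (0.37, adjusted p = 0.0579) was not called by its brightest probe. Without the dye swap of replicate 1, where the other of its 2 probes stood for the gene, it was 1.82 and called (adjusted p = 1.36e-04), and it also passed without the dye swap of replicate 2 (0.45, adjusted p = 0.0349).

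Of 21 genes of the nuclear complex and its corepressors, 19 were tested, and 5 were higher, 5 lower and 9 not called (median -0.13). The share called was 52.6%, beside 47.2% of all tested genes. Fhl1, a LIM-domain protein of which a form binds Rbpj, had the highest ratio of all pathway genes at 3.35 ± 0.69 (SD, n = 2; adjusted p = 7.86e-04). The Groucho-family corepressors differed in sign, Tle2 at 2.04 ± 0.51 (adjusted p = 0.00132) and Tle5 at 0.74 ± 0.34 (adjusted p = 0.0136) being higher and Tle4 at -0.76 ± 0.08 (adjusted p = 0.00547) lower. Without the first array of replicate 1, Tle5 (0.50, adjusted p = 0.420) and Tle4 (-0.74, adjusted p = 0.164) were not called. Snw1 (-0.35, adjusted p = 0.0592, passing at 0.0151 without the dye swap of replicate 1 and at 0.0387 without the dye swap of replicate 2) and the coactivator Ep300 (-0.29, adjusted p = 0.110) were not called.

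Of 12 inhibitors and turnover genes, 8 were tested, and 2 were higher, 2 lower and 4 not called (median 0.20). The share called was 50%, beside 47.2% of all tested genes. Dtx4, a Deltex ubiquitin ligase, was lower at -1.67 ± 0.62 (SD, n = 2; adjusted p = 0.00313), with ratios of -2.24, -0.22, -2.21 and -2.01 on the 4 arrays in order. The ubiquitin ligase Nedd4 was lower (-0.64 ± 0.05, adjusted p = 0.00942), and the kinase Aak1 (0.63 ± 0.03, adjusted p = 0.00953) and Dtx2 (0.49 ± 0.26, adjusted p = 0.0385) were higher. Aak1 was not called without the first array of replicate 1 (0.21, adjusted p = 0.807) or the first array of replicate 2 (0.15, adjusted p = 0.429). Nedd4 was lost without the first array of replicate 1 (-0.54, adjusted p = 0.371), and Dtx2 without the dye swap of replicate 2 (0.45, adjusted p = 0.0542). Fbxw7, which marks the intracellular part for destruction (-0.33, adjusted p = 0.0722), and Itch (0.30, adjusted p = 0.153) were not called, and both passed without the dye swap of replicate 1 (adjusted p = 0.0348 for Fbxw7 and 0.0244 for Itch). Over these 6 pathway lists, 58 of 70 genes were tested and 51.7% were called, 27.6% higher and 24.1% lower, which is near the share among all genes.

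**Figure D3:**
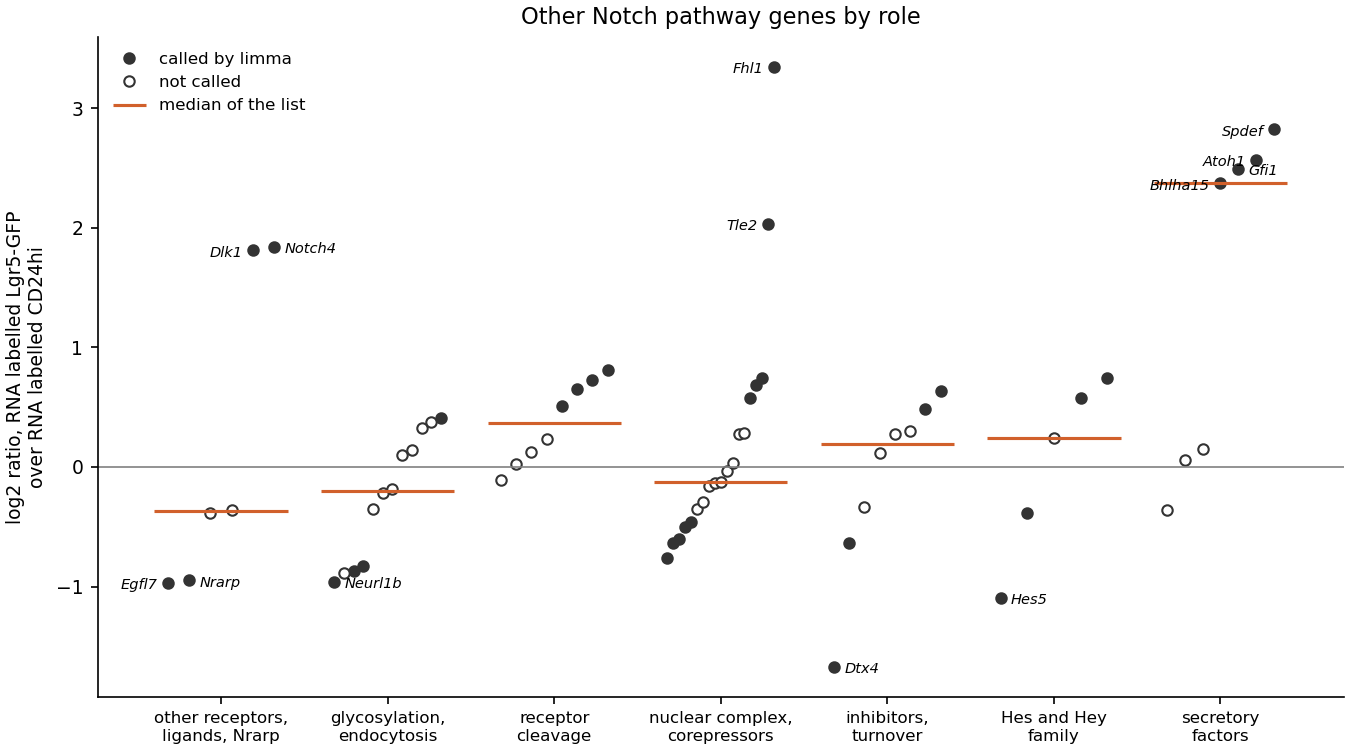
Log2 ratio (vertical axis, RNA labelled Lgr5-GFP divided by that labelled CD24hi) for other Notch pathway genes and for secretory factors, grouped by role (horizontal axis). Each point is a tested gene, filled where limma called it, and the orange bar is the median of the list. The called secretory factors lie between 2.37 and 2.82, and the genes of receptor cleavage have no called gene below 0.

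Secretory fate factors, which stand downstream of Hes1, had the highest median ratio of the 7 lists of Notch-related genes, at 2.37 over the tested genes. Of 9 listed genes 7 were tested, and 4 were higher in RNA labelled Lgr5-GFP, 0 lower and 3 not called. The share called was 57.1%, beside 47.2% of all tested genes. The median was 0.22 with no filter on dim probes, which adds genes, and 1.26 with the mean of each gene's kept probes. Atoh1, the starter of the secretory fate, had ratios of 2.53, 2.69 and 2.53 on its 3 arrays (adjusted p = 6.25e-04). Spdef, which drives goblet cell maturation, averaged 2.82 ± 1.24 (SD, n = 2; adjusted p = 0.00355), Gfi1, a repressor in secretory progenitors, 2.49 ± 0.81 (adjusted p = 0.00182), and Bhlha15, a factor of secretory cells, 2.37 ± 0.74 (adjusted p = 0.00174). With the mean of its 2 kept probes Bhlha15 was 1.26 (adjusted p = 0.00568), so its size depends on the probe. The list medians of 2.37 and 1.26 are the values of Bhlha15. The endocrine factors Neurog3 (-0.36, adjusted p = 0.166) and Insm1 (0.15, adjusted p = 0.390, and -0.02 with arrays centred on their medians) were not called. The goblet cell marker sums given above moved with this group, and their part in it was not tested.

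The 5 genes whose ratios lay closest to those of Hes1 over its 3 arrays, by Euclidean distance among 14773 genes with values there, were Rad51b, Atic, Fmnl3, Ipo5 and Wdr12. Their distances were 0.0954 to 0.117 and their mean ratios -1.56 to -1.45. None of the 5 stands on a Notch list used here.

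The size of the receptor ratios depended on how background was removed. With the processed signals of the scanner software, Notch1 was -2.96, Notch2 -2.87 and Notch3 -2.06, more than the values above in each case, while Hes1 was -1.79. With no background subtraction they were -1.01, -0.64 and -0.31 and Hes1 was -1.35. The receptors are the tested members that were not well above background on some or all arrays in RNA labelled Lgr5-GFP. Jag1 (-1.03) moved by more than 1.5 times too with the processed signals, as did Rbpj (-0.57), which was then called (adjusted p = 0.0431).

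**Figure D4:**
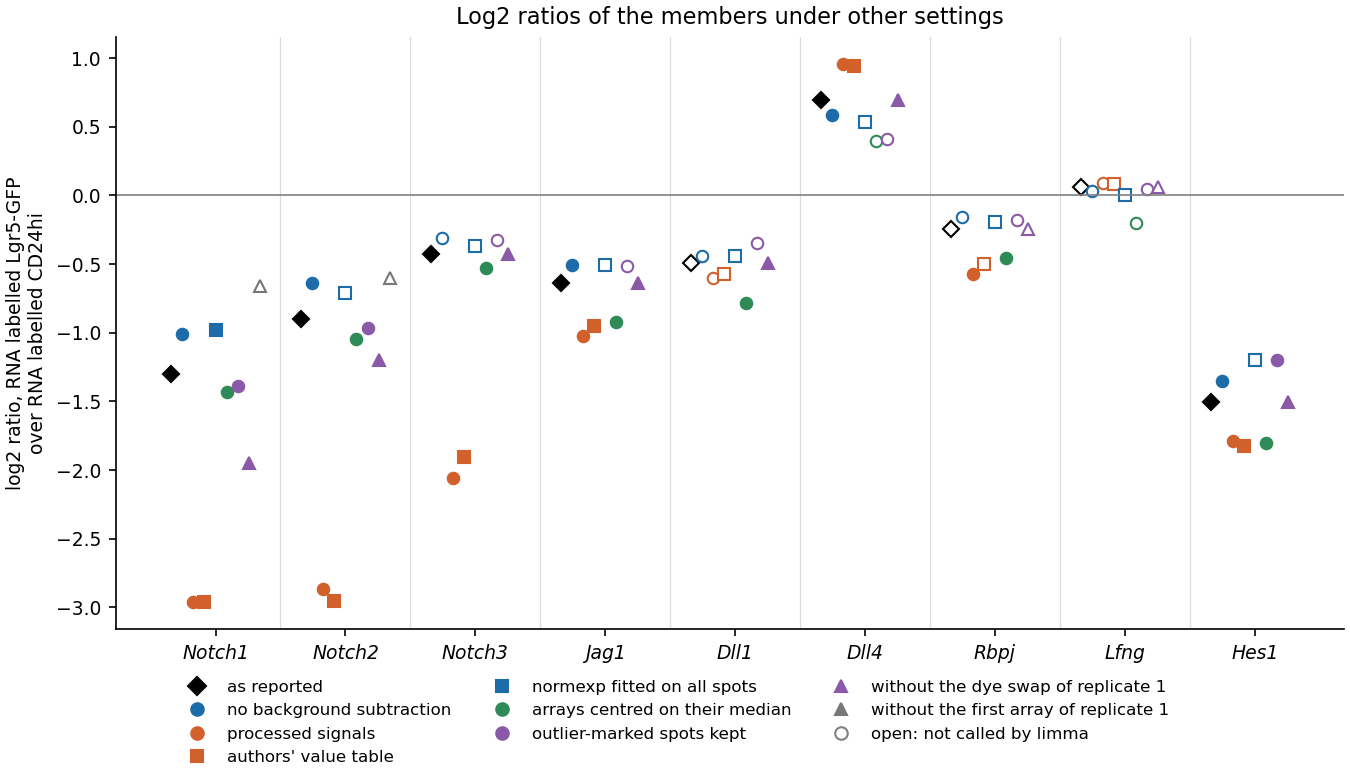
Log2 ratio (vertical axis, RNA labelled Lgr5-GFP divided by that labelled CD24hi) of the 9 tested members (horizontal axis) as reported (black diamonds) and under 8 other settings, filled where limma called the gene and open where it did not. Notch1 ranges from -2.96 to -0.66 and Hes1 from -1.83 to -1.20. No called member changes sign under the settings drawn.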

How the data were processed

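RNA of both sorted populations was hybridised to 4 arrays (2 replicates, each a first array and a dye swap). Per the file headers, the deposited intensity values are mean spot and median local background brightness from Agilent Feature Extraction 10.5.1.1, not normalized, with further processed intensities, background-subtracted and dye-normalized by that software. The authors' deposited value table holds log2 ratios, red over green per array as its fit to the scanner ratios shows (slopes of 2.91 to 3.30 against the deposited log10 ratio) and has a normalization not given in the sources used here. The files place probes on mm9.

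For background, normexp (limma 3.58.1 in R 4.3.3; offset 50) was fitted without spots of non-uniform background, and arrays were normalized by loess (span 0.3) with control and outlier-marked spots at weight 0. Marked spots were then left out (100, 32648, 222 and 163 of 43379, in the array order of the report). Levels per population were taken after loess and Aquantile scaling and are not comparable between probes. Spots of a probe were averaged, swaps turned, and an array and its swap averaged to 1 replicate. For 9142 of the 14801 tested genes the dye swap of replicate 1 gave no value. Replicate 1 was then its first array alone, in 1 dye orientation. limma tested the 2 replicates against 0 (2-sided, 1 probe per gene, the brightest of those above background in at least 1 population; Benjamini-Hochberg over all genes). Of the gene spots, 27041 were named through RefSeq accessions and 16338 kept the file's name. Array number limits the precision. Replicate and slide cannot be told apart.

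The members, lists and tests were chosen with earlier results of these data known. Beside all members, the named genes were Lgr5, Cd24a, Muc2 and Atoh1 and, per pathway list, up to 4 called genes with the largest ratios and up to 2 not called. On simulated data for this comparison (14801 genes, 100 per size), 82% of changes of 1 and 100% of changes of 2 on the log2 scale were called. Further genes named beside a marker count were chosen after their values were seen. Some genes counted in the lists are not reported here by name.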

Additional observations from a re-analysis of the deposited data

How the results depend on the processing

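Each array holds both populations, so each log2 ratio pairs them within an array. The 2 replicates form 1 group of such ratios, tested against 0. None of the 6 called members changed sign under any setting tried, and they fell short of the threshold in 16 of 97 recalculations. The 97 include those with 1 replicate left out, where there was no test and so no threshold to miss. limma called 6985 genes, 1 member higher and 5 lower as reported. With normexp fitted on all spots it called 1387 genes, 0 members higher and 1 lower (Notch1), and Hes1 missed at -1.20 (adjusted p = 0.0517). With marked spots kept it called 3731 genes, 0 members higher and 3 lower (Hes1, Notch1 and Notch2). With the dye swaps only it called 999 genes and 0 members either way (1 lower at an unadjusted p under 0.05), 2 members being tested. With a filter on signal in both populations 6 members were tested, Notch1, Notch2 and Notch3 not being among them. Of these, 3 were lower (Hes1, Jag1 and Dll1) and Dll4 stayed higher. With each array centred on its median 0 members were higher, Dll1 and Rbpj were called lower too, and genes split into 2218 higher and 5424 lower, against 3205 and 3780. Leaving out 1 array gave 981 to 8542 genes, 0 to 1 members higher and 0 to 6 lower, the lowest without the first array of replicate 1, where 2 members had a value. Notch3 was lost in 5 settings. Marked spots in the loess fit, an alternative chosen after seeing the data, gave 5562 genes and lost Notch3 (adjusted p = 0.0603).

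Values near 0 changed sign. With median centring Insm1 was -0.0176, Lfng -0.20 and Psenen -0.0235. Psenen was also -0.0298 in the authors' value table and -0.11 with the dye swaps only, and with 1 array or replicate left out it ran from -0.0590 to 0.308. The median over the 6 pathway lists, 0.0318 as reported, was -0.12 with median centring, -0.00397 with marked spots kept, -0.0418 in the authors' value table and -0.0238 with marked spots in the loess fit. The median of the other receptors and ligands was 0.73 with signal required in both populations, where fewer genes are tested. With the dye swaps only, glycosylation and endocytosis had a median of 0.0491 and inhibitors and turnover of -0.11. Leaving out 1 array or replicate gave -0.228 to 0.0801 for glycosylation and endocytosis, and the highest was that lacking the first array of replicate 1. The cause was not tested for the other changes. With 1 replicate left out, no test remained. Signal near background in 1 or both populations limits Notch1, Notch2, Notch3, Jag2, Hey1, Hes7, Egfl7, Nrarp and Dlk1 among others.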
